A study of Mus musculus with 27 samples.

Results

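The 10 genes described here, Tpm1, Tpm2, Tpm4, Actn1, Actn4, Flna, Vcl, Zyx, Myh9 and Myo1e, encode tropomyosins, actin cross-linkers, adhesion plaque proteins and myosin motors. They were chosen by name, and all 10 were matched to probes of a mouse expression array through the transcript accession of each probe, with 16 probes among them, out of 20145 genes with a symbol. RNA from 27 samples was hybridised to 27 one-colour Agilent arrays, in 12 groups of 2 and 1 group of 3. All groups came from a mouse embryonic stem cell (ESC) line in which doxycycline (DOX) switches on a Flag-tagged dominant-negative FOS peptide (dnFOS) from the Hprt locus. dnFOS pairs with JUN proteins and keeps them off DNA, so that DOX blocks AP-1 activity, and the comparison with and without DOX asked which genes depended on AP-1.

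ESCs were differentiated as embryoid bodies for 3.75 days and cells with the VEGF receptor FLK1 were purified. The FLK1+ group held these cells, untreated. In blast culture, with and without 1 µg/ml DOX, complete cultures were taken after 5 h (FLK1+ 5h) and after 24 h (d1 BC). The other 4 populations were sorted after 2 days with and without DOX, namely smooth muscle (SM) cells, early hemogenic endothelium (HE1, KIT+TIE2+CD41-), late hemogenic endothelium (HE2, KIT+TIE2+CD41+) and hematopoietic progenitors (HP, KIT+TIE2-CD41+). Untreated cells carried the same silent dnFOS allele. The line was grown from picked, drug-selected clones on feeder cells, and no source used here states that replicate arrays came from separate cultures, so that p-values measure the spread between these samples. In bulk RNA, fewer cells of a type and less RNA per cell cannot be told apart.

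Tropomyosins wind along actin filaments and set which motors and cross-linkers can bind them. Alpha-actinins and filamins tie filaments into bundles and meshes, vinculin and zyxin sit in the adhesion plaques where filaments meet integrins, and myosins pull on the filaments or link them to membranes. Smooth muscle and spreading adherent cells are rich in this machinery, and blood progenitors leave the adherent layer when they bud from hemogenic endothelium. Many of these genes are known targets of serum response factor (SRF), which binds the CArG box, and some are known targets of AP-1 or of TEAD factors.

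A level is given here as the log2 signal of a probe relative to the 75th percentile of its array, and levels of different genes are not comparable because their probes differ. All 16 probes were well above background on 27 of 27 arrays. Of the 62976 spots of an array, 48.0 to 89.7% were well above background and 0 were saturated, and replicate arrays correlated at r from 0.922 to 0.975. Hprt, whose locus carries the transgene, was higher on every DOX array, by 2.65-fold after 5 h and by 4.36 to 12.3-fold later. SM replicate 2 stood apart from the other SM arrays with and without DOX. In untreated SM its mean level of pluripotency markers was -2.79 against 0.43 and 0.15, and that of endothelial markers was 1.01 against -1.79 and -1.34. In all, 5 slides and 4 scan days were used.

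The sequence around an annotated start of these genes was read from a RefSeq table on the mouse build GRCm38.p6. The window ran from 250 bases before to 50 bases after that start. It was searched on both strands for the AP-1 motif TGANTCA, the TEAD motif GGAATG, the cyclic AMP response element TGACGTCA and the CArG box. All 10 genes had a window. The AP-1 motif was in those of Actn4 and Zyx and in 7.81% of all 32851 windows, and the TEAD motif was in those of Tpm1, Actn4, Flna and Vcl and in 14.7% of all. The CArG box was in those of Vcl and Myo1e and in 1.63% of all, and TGACGTCA was in 0 of the 10 and in 1.79% of all. The Myo1e window lies within the annotated extent of a predicted gene, Gm26849. In Tpm1, Flna and Zyx all bases before the start lie within the annotated extent of the gene itself. For these genes only 30 bases around the match are printed, and for the others the bases outside the gene's own extent. These matches describe letters in a window and not bound sites. Capitals below mark the matches, and each run is written 5′ to 3′ on the strand of the gene. The first pair are the genes with an AP-1 motif, the second pair those with a CArG box, and the third those with a TEAD match alone. The last pair, which had none of these motifs, are members whose levels with DOX are followed below.
Actn4 (chr7:28962352-28962582, minus strand): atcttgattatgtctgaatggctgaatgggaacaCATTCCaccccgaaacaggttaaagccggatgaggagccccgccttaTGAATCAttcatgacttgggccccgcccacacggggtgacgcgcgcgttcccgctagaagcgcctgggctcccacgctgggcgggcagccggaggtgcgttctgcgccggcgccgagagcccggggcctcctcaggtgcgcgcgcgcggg
Zyx (chr6:42349695-42349724, plus strand): gagtgcggacagTGAGTCAgttctccagca
Vcl (chr14:20929148-20929382, plus strand): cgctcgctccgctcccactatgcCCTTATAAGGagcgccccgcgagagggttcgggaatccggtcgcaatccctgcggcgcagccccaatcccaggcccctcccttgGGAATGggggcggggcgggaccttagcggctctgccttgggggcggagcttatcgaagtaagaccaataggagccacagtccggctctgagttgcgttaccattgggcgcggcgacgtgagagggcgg
Myo1e (chr9:70207100-70207349, plus strand): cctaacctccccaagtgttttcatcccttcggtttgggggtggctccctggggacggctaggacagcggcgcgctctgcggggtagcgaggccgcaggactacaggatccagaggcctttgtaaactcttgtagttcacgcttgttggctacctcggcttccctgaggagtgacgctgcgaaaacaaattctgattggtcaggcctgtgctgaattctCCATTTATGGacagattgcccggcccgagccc
Tpm1 (chr9:67049252-67049281, minus strand): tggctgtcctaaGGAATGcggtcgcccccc
Flna (chrX:74246663-74246692, minus strand): ggcgttgtggggCATTCCaacgggaggggc
Tpm2 (chr4:43523584-43523804, minus strand): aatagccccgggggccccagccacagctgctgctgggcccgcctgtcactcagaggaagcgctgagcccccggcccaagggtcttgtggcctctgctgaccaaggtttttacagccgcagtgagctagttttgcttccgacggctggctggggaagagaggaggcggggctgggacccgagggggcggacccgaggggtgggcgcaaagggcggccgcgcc
Actn1 (chr12:80260421-80260613, minus strand): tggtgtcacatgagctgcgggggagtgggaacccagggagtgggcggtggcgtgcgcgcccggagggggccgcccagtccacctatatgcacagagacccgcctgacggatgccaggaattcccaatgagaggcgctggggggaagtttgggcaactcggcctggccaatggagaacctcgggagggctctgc

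Over the 13 groups, 7 of the 10 genes had their highest mean in untreated d1 BC, namely Tpm1, Tpm2, Actn1, Actn4, Flna, Myh9 and Myo1e. Vcl was highest in untreated SM, Tpm4 in HE2 with DOX and Zyx in HP with DOX. The 4 genes with the widest range between group means were Tpm1 (5.17 on the log2 scale), Tpm2 (5.08), Myo1e (4.31) and Actn1 (3.47). The other 6 ranged over 1.19 to 1.89, against a mean SD between replicate arrays of 0.43 to 0.81 for these 6 genes.

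**Figure D1:**
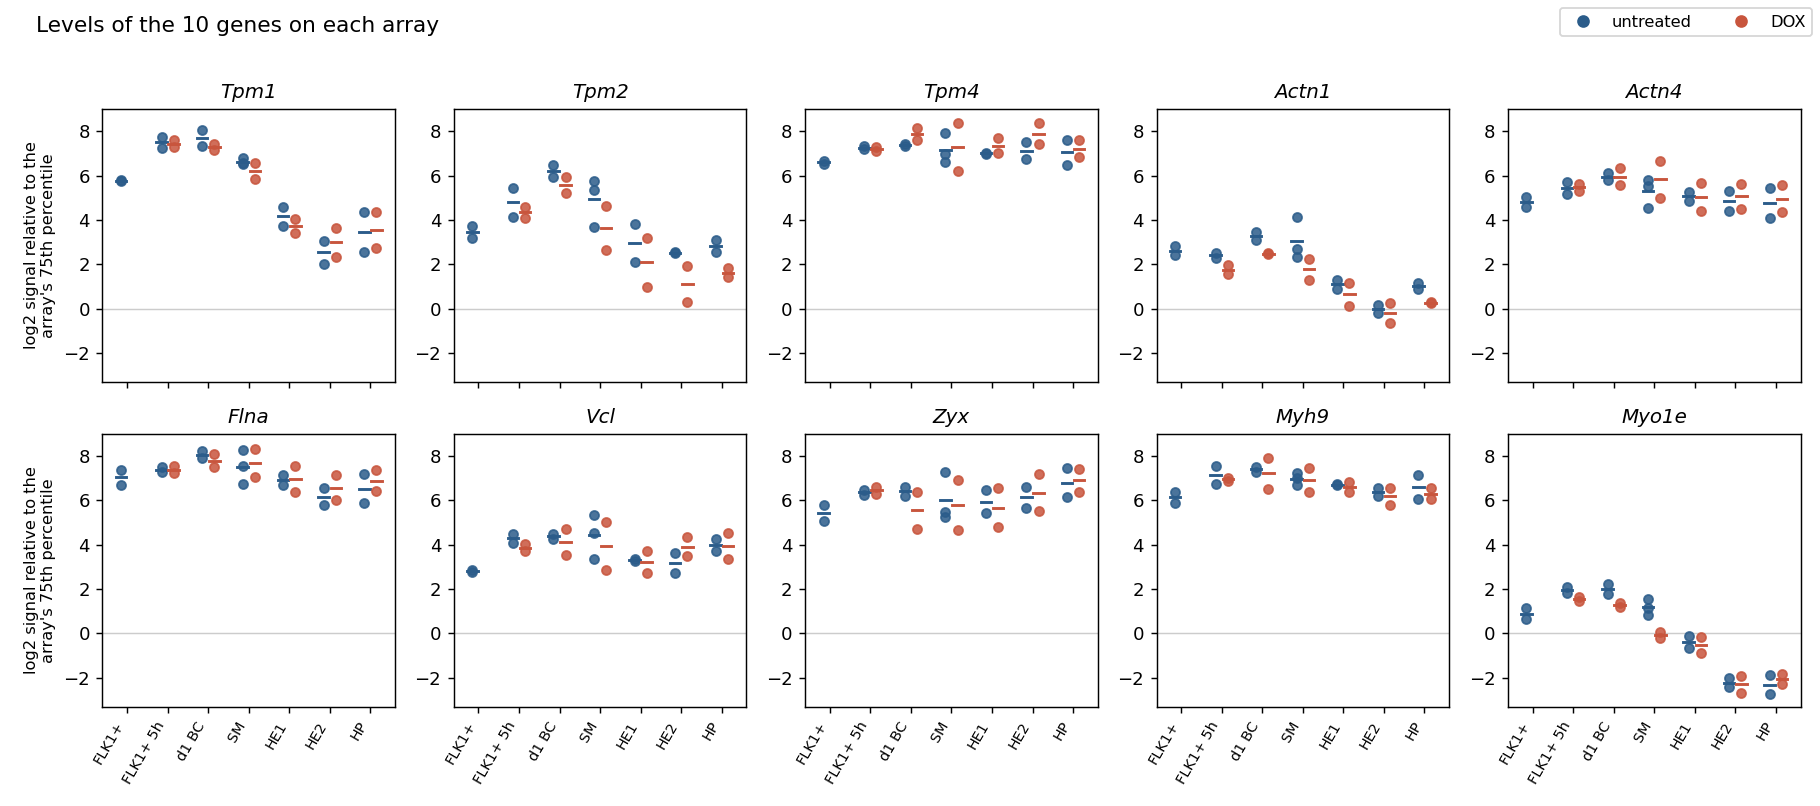
Level of each of the 10 genes (y axis, log2 signal relative to the array's 75th percentile) in the 7 populations (x axis). Each point is 1 array, blue without and red with DOX, and Tpm1, Tpm2, Actn1 and Myo1e show the wide drop from SM to HE2 and HP while Tpm4 and Zyx do not.

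Tpm1, the main tropomyosin of muscle and stress fibres, measured 5.74 and 5.80 in FLK1+ cells. It read 7.76 and 7.24 at FLK1+ 5h and 8.06 and 7.34 in d1 BC. The SM arrays read 6.79, 6.57 and 6.54 and thus lay between FLK1+ cells and the blast cultures. Levels then stepped down to 4.59 and 3.75 in HE1 and 2.02 and 3.04 in HE2, with 2.56 and 4.37 in HP. Over all 13 groups, 3 of 12 neighbours in the order of Tpm1 means had arrays that did not overlap, so that much of the fine order lies within the replicate spread.

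Tpm2, a tropomyosin of contractile cells, read 3.74 and 3.16 in FLK1+ cells, 5.45 and 4.14 at FLK1+ 5h and 6.46 and 5.93 in d1 BC. In SM it read 5.37, 3.67 and 5.75, the low value being replicate 2. HE1 read 3.83 and 2.10, HE2 2.54 and 2.50 and HP 2.56 and 3.11. Tpm2 thus followed Tpm1 in outline, with 2 of 12 neighbours apart. Tpm4, the tropomyosin of non-muscle cells and platelets, showed no such drop, and its untreated arrays ran from 6.48 to 7.92 with both extremes in sorted populations.

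Actn1, the alpha-actinin of stress fibres and adhesions, read 2.81 and 2.41 in FLK1+ cells, 2.53 and 2.29 at FLK1+ 5h and 3.12 and 3.43 in d1 BC. SM read 2.34, 2.70 and 4.11, and HE1 1.31 and 0.90. The lowest untreated arrays were those of HE2, at -0.20 and 0.14, and HP read 1.13 and 0.90, so that untreated HE2 lay below both its neighbours. Actn4, the second non-muscle alpha-actinin, and Flna, the main filamin of non-muscle cells, had 0 of 12 neighbours apart. Mean levels of Actn4 ran from 4.77 ± 0.96 (SD, n = 2) in untreated HP to 5.96 ± 0.21 (n = 2) in untreated d1 BC. Those of Flna ran from 6.17 ± 0.54 (n = 2) in untreated HE2 to 8.06 ± 0.22 (n = 2) in untreated d1 BC.

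Vcl, which links integrin-bound talin to actin, had its lowest mean in FLK1+ cells, which read 2.75 and 2.86. It read 4.50 and 4.08 at FLK1+ 5h, and its SM arrays spread widely, over 3.36, 5.36 and 4.54. In Vcl 1 of 12 neighbours was apart. Zyx, a zyxin-family plaque protein that moves to strained filaments, had 0 of 12 apart and also had its lowest mean in FLK1+ cells, 5.42 ± 0.52 (n = 2) against 6.91 ± 0.74 (n = 2) in HP with DOX. For both plaque genes HP was not among the low groups on these probes, unlike for Tpm1 and Tpm2. The second Vcl probe read lower in HP, with a mean of -0.90 ± 0.79 (n = 2) against 0.17 ± 0.52 (n = 3) in SM and -0.17 ± 0.79 (n = 2) in HE2.

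Myh9, the heavy chain of non-muscle myosin IIA, varied little, from 6.14 ± 0.34 (n = 2) in FLK1+ cells to 7.40 ± 0.17 (n = 2) in untreated d1 BC, with 0 of 12 neighbours apart. Myo1e, a class I myosin that links actin to membranes, read 1.17 and 0.63 in FLK1+ cells, 2.11 and 1.83 at FLK1+ 5h and 1.77 and 2.24 in d1 BC. SM read 1.14, 0.84 and 1.54. HE1 read -0.14 and -0.65, all below SM, and HE2 (-2.43 and -2.03) and HP (-2.73 and -1.88) were lower still. Myo1e had 4 of 12 neighbours apart, the most of the 10 genes. Its probe was the dimmest of the 10 used, 1 for each gene, and on the array where it was weakest it lay 0.43 on the log2 scale above the lowest signal well above background.

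Of the 7 comparisons of untreated populations, that of SM with HP, both sorted after 2 days, called the most of the 10 genes. Myo1e fell by 3.48 on the log2 scale (SE 0.44, adjusted p = 4.92e-05), an 11.1-fold lower level in HP. Tpm1 fell by 3.17 (SE 0.60, adjusted p = 0.00161), or 8.99-fold, and Actn1 fell by 2.03 (SE 0.52, adjusted p = 0.0152), or 4.09-fold. These adjusted p-values and those below are from limma with Benjamini-Hochberg adjustment over all genes tested, and a gene was called at an adjusted p under 0.05 with at least a 2-fold change. Among all genes tested between SM and HP, 6.21% were called lower and 3.12% higher in HP, and of the 10 genes 3 were called lower and 0 higher. The median difference of the 10 was -0.77 against 0.14 over all genes tested, but it was -0.25 without HP replicate 1, -1.43 without HP replicate 2 and -1.55 over all probes.

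Tpm2 differed by -2.09 between SM and HP (SE 0.79, adjusted p = 0.127) and was not called, although no arrays overlapped. Every HP array lay below every SM array in Tpm2 and the 3 called genes, or 4 of 10 against 15.6% of all genes tested. Without SM replicate 2, which had the low Tpm2 value, the difference was -2.72 with an adjusted p of 0.0369, while Myo1e, Tpm1 and Actn1 kept their calls. Tpm2 was also called on its second probe (-2.26, adjusted p = 0.0167), with the mean of its probes (adjusted p = 0.0386), with slide as a random block (adjusted p = 0.0413) and with array weights (adjusted p = 0.00217). Zyx was the 1 gene of the 10 whose mean was higher in HP, by 0.80 (SE 0.81, adjusted p = 0.789), with 0.15 to 1.44 when 1 array was left out (lowest without HP replicate 2). Tpm4 (-0.12), Vcl (-0.42), Myh9 (-0.38) and Actn4 (-0.53) lay between and did not pass, nor did Flna, whose mean was 2.01-fold lower in HP (SE 0.59 on the log2 scale, adjusted p = 0.469). On the log2 scale Flna was -0.35 without HP replicate 1, -1.66 without HP replicate 2 and -0.62 without SM replicate 2. Without HP replicate 1, Tpm4 (0.45), Myh9 (0.16) and Actn4 (0.15) had higher means in HP, and without SM replicate 2 so did Tpm4 (0.27) and Vcl (0.054). The fall of Myo1e kept its call in each of the 22 alternatives run, at -2.58 to -3.90. The call of Tpm1 was lost without HP replicate 1 (-2.26, adjusted p = 0.0931), with only SM and HP in the fit (adjusted p = 0.064) and on 2 of its 5 probes. That of Actn1 was lost without HP replicate 1 (adjusted p = 0.0994), HP replicate 2 (adjusted p = 0.141) or SM replicate 3 (-1.50, adjusted p = 0.0846). It was also lost with the replicate number as a block (adjusted p = 0.065), with median scaling (adjusted p = 0.172) and with only SM and HP in the fit (adjusted p = 0.239).

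**Figure D2:**
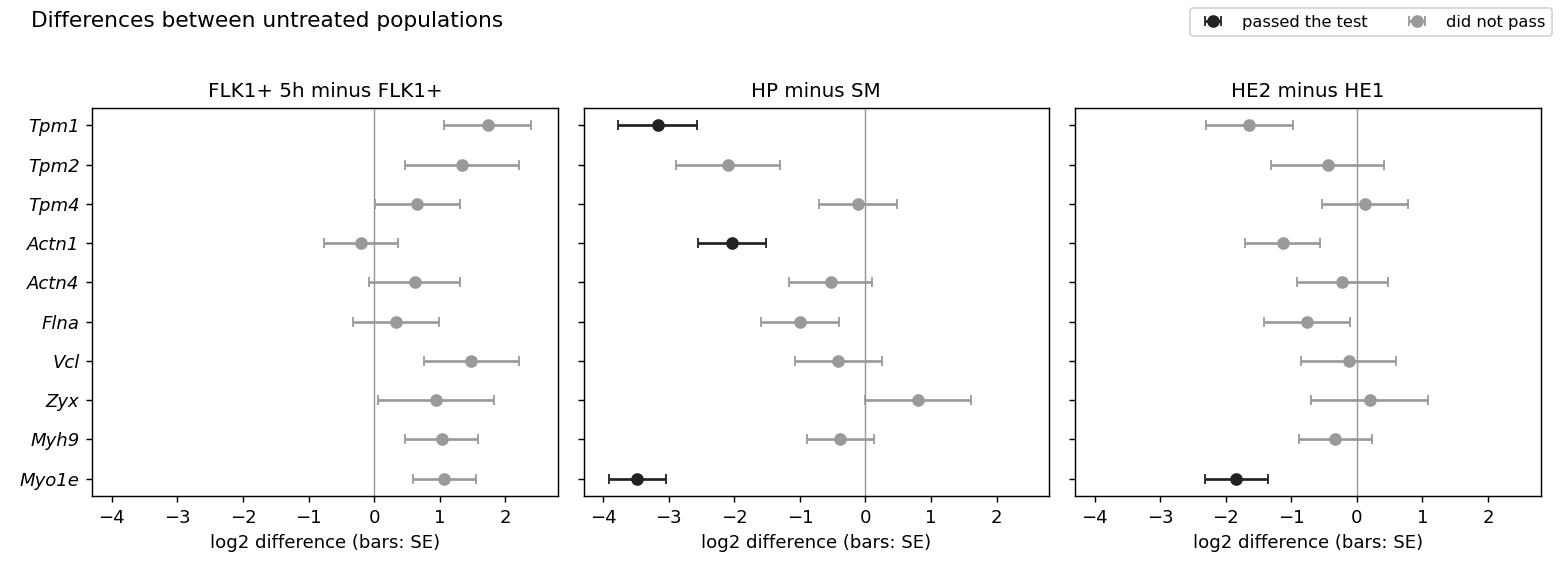
Log2 difference (x axis, bars are the standard error) of each of the 10 genes between untreated populations, FLK1+ 5h minus FLK1+, HP minus SM and HE2 minus HE1. Black points passed the test, and these are Tpm1, Actn1 and Myo1e between SM and HP and Myo1e between HE1 and HE2.

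Slides 1 and 3 each held untreated SM and HP arrays. Myo1e differed by -4.27 on slide 1 and by -2.72 on slide 3, Tpm1 by -3.98 and -2.20, and Actn1 by -2.98 and -1.80. All 3 genes were thus lower in HP within both slides. Tpm2 differed by -3.19 on slide 1 but by -0.56 on slide 3, whose SM array is replicate 2.

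Other markers moved with this contrast. The 7 fibroblast markers were all called lower in HP, and their summed signal, in multiples of the array's 75th percentile, was 172 to 206 in SM, 46.4 to 86.9 in HE1, 3.90 to 5.29 in HE2 and 5.23 to 12.9 in HP. All 7 were above background on every SM array, 4 to 7 of them on the HE2 arrays and 6 or 7 on the HP arrays. The 8 smooth muscle markers summed to 959 to 1987 in SM and 57.8 to 264 in HP, with Acta2, Cald1, Cnn1 and Tagln called lower. Of 8 hematopoietic markers, 7 were called higher in HP, as were 4 of 6 megakaryocyte, 2 of 6 myeloid and 1 of 8 endothelial markers tested. The erythroid markers were not called and summed to 62.0 to 409 in SM and 151 to 266 in HP. All 7 of them were above background on every SM array. Of 4 pluripotency markers tested, 3 were called lower in HP. The summed signal of that list was 22.0 and 15.8 in SM replicates 1 and 3 but 0.91 in SM replicate 2, against 0.50 to 0.95 in HP. The part of these markers in the differences of the 10 genes was not tested.

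Other genes of the same machinery were tested between SM and HP. Of 16 further tropomyosin, actinin, filamin and myosin genes, 6 fell, with Myl9, a regulatory light chain of smooth muscle myosin, at -3.37 (SE 1.00) and the class I myosin Myo1d at -3.31 (SE 0.61). Myh10 (-2.94), a heavy chain of non-muscle myosin II, and Flnc (-1.96) were also among them. In the opposite direction, the class I myosins of blood cells rose, Myo1f by 6.58 (SE 0.53, adjusted p = 6.11e-07) and Myo1g by 6.54 (SE 0.64, adjusted p = 4.17e-06), which 2 of the 3 SM arrays read well above background. Class I myosins were therefore split, with Myo1e and Myo1d lower in HP and Myo1f and Myo1g higher. The median of the 16 was -1.74.

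Of 42 focal adhesion and actin-binding genes, 39 were tested between SM and HP, 12 fell and 1 rose, with a median of -1.11. The largest fall was that of Parva, which encodes alpha-parvin of the integrin-linked kinase complex, at -3.73 (SE 0.61, adjusted p = 0.000474). The other falls were those of Palld, Fblim1, Fermt2, Ajuba, Lims2, Bcar1, Lima1, Enah, Tln2, Lpp and Tns1, from -3.62 to -1.91. The gene that rose was Fermt3, the kindlin of blood cells, by 4.47 (SE 0.83, adjusted p = 0.00135), while its relative Fermt2 fell by 3.08. Of 4 SRF and MRTF regulators, Myocd, the cardiac and smooth muscle cofactor of SRF, was at least 11.4-fold lower in HP (adjusted p = 0.000233), where 1 of 2 arrays read it well above background, and the other 3 did not pass. An "at least" value sets the brighter group against the lowest signal well above background on each array of the dimmer one, or against the gene's own signal there where that was higher.

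The fall from SM to HP was then taken apart by step. From SM to HE1 all 10 genes had a lower mean, and 0 were called, against 0.342% of all genes called lower and 0.226% higher. In Tpm4, Actn4 and Zyx the direction turned without 1 array, SM replicate 2 in each case and for Zyx also HE1 replicate 1. Tpm1 differed by -2.46 (SE 0.60, adjusted p = 0.0683), Actn1 by -1.95 (SE 0.52, adjusted p = 0.0930) and Myo1e by -1.56 (SE 0.44, adjusted p = 0.108). All HE1 arrays lay below all SM arrays for these 3 genes and, by a narrow margin, for Vcl, or 4 of 10 against 13.7% of all genes tested. These values stood close to the threshold, and 1 to 4 of the 10 genes were called in 9 of the 19 other ways of processing the arrays. Among the markers, the endothelial Cldn5, Emcn and Tie1 and the hematopoietic Kit were called higher in HE1, and Gata1 lower. Summed smooth muscle signal was 959 to 1987 in SM and 276 to 603 in HE1. Summed endothelial signal was 13.2 to 73.8 in SM and 101 to 184 in HE1. The part of these markers in this step was not tested.

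From HE1 to HE2, Myo1e fell by 1.84 (SE 0.48, adjusted p = 0.0488), or 3.57-fold, and the other 9 genes were not called, against 1.8% of all genes called lower and 0.529% higher. The differences of Myo1e within slides 1 and 3 were -2.29 and -1.38. This call was kept in 10 of the 21 alternatives run. It was lost when any 1 of the 4 arrays was left out, with normexp background correction, where the difference was -0.96 (adjusted p = 0.596), with median scaling (-1.64, adjusted p = 0.512), without a filter or with a filter on both groups, with every probe tested, with array weights and with only the 2 groups in the fit. Tpm1 differed by -1.64 (SE 0.66, adjusted p = 0.336) and Actn1 by -1.13 (SE 0.57, adjusted p = 0.589), both with no overlap of arrays. Flna, at 5.79 and 6.55 in HE2 against 6.71 and 7.15 in HE1 (-0.76, SE 0.65, adjusted p = 0.968), and Myh9, at 6.19 and 6.57 against 6.73 and 6.68 (-0.33, SE 0.56), did not overlap either. Together with Myo1e these were 5 of 10 genes below, against 16.1% of all genes tested. In the other lists Myh10 (-2.02), Myo1d (-3.08), Parva (-2.69) and Fblim1 (-2.91) fell. Myo1f was at least 35.0-fold higher in HE2 (adjusted p = 0.000133), as 0 of 2 HE1 arrays read it well above background.

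From HE2 to HP, 7 of the 10 genes had a higher mean and 0 were called, against 0.00394% of all genes called higher and 0% lower, and 5 of the 10 directions turned without 1 array. The largest difference was that of Actn1, at 1.05 (SE 0.57, adjusted p = 0.830). All HP arrays lay above all HE2 arrays for Actn1, Vcl (0.83, SE 0.73, adjusted p = 0.869) and Tpm2 (0.32, SE 0.86, adjusted p = 0.972), or 3 of 10 against 15.4% of all genes tested. Vcl was 0.37 without HE2 replicate 1, Tpm2 was 0.042 without HP replicate 2, and the second Vcl probe was lower in HP (-0.74). In the earlier cultures no member was called either. From FLK1+ to FLK1+ 5h, 9 of 10 means were higher and in 8 of the 10 every FLK1+ 5h array lay above every FLK1+ array, against 25.7% of all genes tested, with a median of 0.99 against -0.18 over all genes, of which 2.59% were called higher and 0.247% lower. Tpm1 had the largest difference, 1.73 (SE 0.66, adjusted p = 0.206), followed by Vcl at 1.49 (SE 0.73, adjusted p = 0.349). The adjusted p-values of the 8 ran from 0.206 to 0.735, and 4 of the 8 differences moved by over 1.5 times when 1 array was left out, as that of Tpm2 did, from 1.34 to 0.69 without FLK1+ 5h replicate 1. Tpm1 was called with quantile normalization (1.89, adjusted p = 0.0432), and Tpm1 (1.95, adjusted p = 0.0230) and Myh9 (1.32, adjusted p = 0.0320) were called on the authors' values. Of the other lists, the striated muscle filamin Flnc (2.30) and Lpp (2.79), a plaque protein related to zyxin, rose.

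From FLK1+ 5h to d1 BC all 10 means were higher with 0 called, against 0.555% of all genes called higher and 0.883% lower, and Tpm2 had the largest difference, 1.40 (SE 0.86, adjusted p = 0.650). Of these 10 directions, those of Tpm1, Vcl, Zyx, Myh9 and Myo1e turned without 1 array, and that of Tpm4 turned with median scaling (-0.20) and with scan day as a block (-0.22). Tpm2 was 0.75 without FLK1+ 5h replicate 2. All d1 BC arrays lay above all FLK1+ 5h arrays for Tpm2, Actn1 (0.86), Flna (0.68), Actn4 (0.52) and Tpm4 (0.13), or 5 of 10 against 21.7% of all genes tested, with adjusted p-values from 0.650 to 0.989. Of the other lists, Lims2, a partner of integrin-linked kinase, rose by 2.43. The summed signal of the 8 smooth muscle markers was 88.6 to 109 in FLK1+ cells, 488 to 846 at FLK1+ 5h and 1097 to 1678 in d1 BC, and that of the 7 fibroblast markers was 11.8 to 15.9, 9.48 to 11.5 and 34.1 to 41.7. The 7 erythroid markers summed to 1.02 to 1.43, 1.14 to 1.34 and 21.1 to 82.2. The part of these markers in the values of the 10 genes was not tested. From d1 BC to SM, 9 of 10 means were lower with 0 called, against 0.217% called higher and 0.026% lower. Tpm2 again had the largest difference, -1.27 (SE 0.79, adjusted p = 0.998), but it was -0.63 without SM replicate 2, where Tpm1 and Zyx, both at -1.04, differed more. All SM arrays lay below all d1 BC arrays for Tpm2, Tpm1 (-1.07, SE 0.60, adjusted p = 0.959), Myo1e (-0.83, SE 0.44, adjusted p = 0.920) and Myh9 (-0.42, SE 0.51), or 4 of 10 against 9.86% of all genes tested. The direction turned without 1 array in 3 of the 10. In the other lists Myo1f was at least 4.89-fold higher in SM (adjusted p = 0.00584), as 0 of 2 d1 BC arrays read it well above background.

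The profile over the 13 groups was shared by most of the 10 genes. Each gene was centred on its mean and averaged with the others, and the correlation with this mean profile was 0.98 for Tpm1, 0.96 for Tpm2, 0.93 for Myo1e and Flna and 0.91 for Actn1. It was 0.89 for Myh9, 0.83 for Actn4 and 0.61 for Vcl, but 0.13 for Tpm4 and -0.16 for Zyx. These correlations are a description over 13 group means in which each gene is part of the average and all groups share 1 cell line. The 5 genes outside the set with the profile most like it, among 16219 genes, were Mras (r = 0.978), Acta1 (0.976), Fhl2 (0.974), Irs1 (0.972) and Myl4 (0.971).

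With DOX, 0 of the 10 genes were called in any of the 6 populations. Among all genes tested the share called was 0.00421% for FLK1+ 5h, 0% for d1 BC, 0.0084% for SM, 0% for HE1, 0% for HE2 and 0.0398% for HP, so that calls with DOX were rare throughout. Of the 60 tests of the 10 genes, 39 differences were below 0, 2 had an unadjusted p under 0.05 (Actn1 and Myo1e, both in SM), and the lowest adjusted p was 0.548. In 40 of the 60 the direction turned when 1 array was left out. Standard errors ran from 0.44 to 0.89 on the log2 scale with 2 or 3 arrays a group, and a missed threshold does not show that a level was the same with and without DOX.

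Every DOX array lay below every untreated array in 11 of the 60 tests and above in 2. The 11 were Actn1 in FLK1+ 5h, d1 BC, SM and HP, Myo1e in FLK1+ 5h, d1 BC and SM, Tpm2 in d1 BC, HE2 and HP, and Vcl in FLK1+ 5h. The 2 above were Tpm4 in d1 BC and in HE1. Over all genes tested the share with every DOX array below was 16.4% for FLK1+ 5h, 9.77% for d1 BC, 6.02% for SM, 8.33% for HE1, 14.3% for HE2 and 12.5% for HP. The share above was 18.6%, 18.4%, 4.47%, 8.74%, 20.4% and 25.6% in the same order. The members below numbered 3, 3, 2, 0, 1 and 2 of 10 in that order. The adjusted p of the 13 was 0.548 for Tpm2 in HE2 and at least 0.9989 for the others, and 6 of the 13 differences moved by over 1.5 times when 1 array was left out.

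Markers of other cell types differed between the same arrays, with 0 markers called in any population. The summed signal of the fibroblast markers was lower on both DOX arrays at FLK1+ 5h (8.63 to 9.24 against 9.48 to 11.5), in d1 BC (14.5 to 19.3 against 34.1 to 41.7), in SM (92.5 to 144 against 172 to 206) and in HE1 (25.2 to 43.2 against 46.4 to 86.9). That of the endothelial markers was higher on both DOX arrays at FLK1+ 5h (10.75 to 25.8 against 4.81 to 8.75), in d1 BC (23.3 to 26.5 against 13.3 to 21.3), in HE2 (122 to 154 against 83.0 to 110) and in HP (63.0 to 75.3 against 47.6 to 57.3). That of the hematopoietic markers was higher in HE2 (130 to 204 against 105 to 117) and in HP (189 to 275 against 152 to 179). Mean log2 levels, which weigh each gene of a list alike, followed these sums only in part. Hematopoietic means were higher with DOX in HE2 (2.90 to 3.05 against 2.74 to 2.86) but lower in HP (3.42 to 3.75 against 3.82 to 3.83). Fibroblast means overlapped in each population named, as in SM (1.70 to 3.32 against 2.11 to 3.37). Endothelial means were higher at FLK1+ 5h (-2.30 to -2.12 against -2.63 to -2.55) and overlapped in d1 BC, HE2 and HP. The mean level of the myeloid markers was lower on both DOX arrays in SM (-1.97 to -1.73 against -1.51 to -0.58). The same held in HE2 (-0.27 to 0.80 against 1.25 to 1.54) and HP (0.41 to 1.13 against 1.54 to 2.10). At FLK1+ 5h it was higher (-1.83 to -1.70 against -2.23 to -1.90), and 5 of 29 myeloid tests had an unadjusted p under 0.05. Summed smooth muscle signal overlapped in all 6 populations, as in SM (747 to 1531 against 959 to 1987). The part of these markers in the DOX differences of the 10 genes was not tested.

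Actn1 in d1 BC read 2.46 and 2.49 with DOX against 3.12 and 3.43 without, a difference of -0.80 (SE 0.57). In SM it read 2.26 and 1.29 with DOX against 2.34, 2.70 and 4.11, a difference of -1.28 (SE 0.52, adjusted p = 0.999), and in HP 0.23 and 0.30 against 1.13 and 0.90, a difference of -0.76 (SE 0.57). In FLK1+ 5h it read 1.56 and 1.96 against 2.53 and 2.29. The mean of Actn1 was lower with DOX in 6 of 6 populations, by 0.17 to 1.28, and the SM difference rested partly on the high untreated replicate 3 (-0.75 without it) and on DOX replicate 2 (-0.79 without it). The direction turned in 2 populations, HE2 (0.30 without DOX replicate 2 and 0.0031 without untreated replicate 2) and HE1 (0.060 without DOX replicate 2).

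Tpm2 was also lower with DOX in 6 of 6 populations, by 0.45 to 1.40, although in HE1 the difference was 0.22 without DOX replicate 2 and -1.98 without DOX replicate 1, and at FLK1+ 5h it was 0.20 without untreated replicate 1. In HE2 it read 1.93 and 0.30 with DOX against 2.54 and 2.50, a difference of -1.40 (SE 0.86, adjusted p = 0.548). In HP it read 1.84 and 1.41 against 2.56 and 3.11, a difference of -1.21 (SE 0.86). The arrays did not overlap in either population, but the DOX arrays of HE2 lay far apart, and the difference there was -0.59 without DOX replicate 2. In SM both replicates numbered 2 were the low ones, at 2.66 with DOX and 3.67 without, and the groups overlapped.

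Myo1e in SM read 0.08 and -0.21 with DOX against 1.14, 0.84 and 1.54, a difference of -1.24 (SE 0.44, adjusted p = 0.999). Leaving out SM replicate 2 gave -1.41 without the untreated and -1.10 without the DOX array. In d1 BC it read 1.19 and 1.38 against 1.77 and 2.24. In HE2 and HP, where Myo1e was low in any case, the DOX and untreated arrays overlapped, and in HE1, HE2 and HP the direction turned without 1 array.

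No other member had every DOX array on one side in more than 2 populations. Tpm4 was higher with DOX in 5 of 6 populations, by up to 0.77 in HE2 (SE 0.65, adjusted p = 0.602; 0.29 without DOX replicate 2 and 0.39 without untreated replicate 1), and in d1 BC it read 8.13 and 7.60 against 7.43 and 7.35. Its direction turned without 1 array in 3 of the 6, namely FLK1+ 5h, SM and HP. Vcl ran from -0.48 to 0.74 on its first probe and from -1.29 to 0.02 on its second, Zyx from -0.84 to 0.22, Flna from -0.27 to 0.40 and Actn4 from -0.03 to 0.53. The mean of Myh9 was lower in 6 of 6 populations by no more than 0.29, but it was lower in only 6 of the 11 slide pairs described next, and in each population the direction turned without 1 array, as in d1 BC, at 0.53 without DOX replicate 2. Those of Actn4 and Flna turned in 6 of 6 populations as well.

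In 11 cases an untreated and a DOX array of the same population shared a slide. Tpm2 was lower with DOX in 11 of the 11, by 0.01 to 2.20 with a median of -0.75, Actn1 in 10 (median -0.66) and Myo1e in 8 (median -0.22). Tpm4 was lower in 3 of the 11. The single exception for Actn1 was HE2 on slide 1, at 0.47. The share of all genes that were lower in as many pairs was not computed. These pairs use the same arrays as the tests above and add no separate samples.

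**Figure D3:**
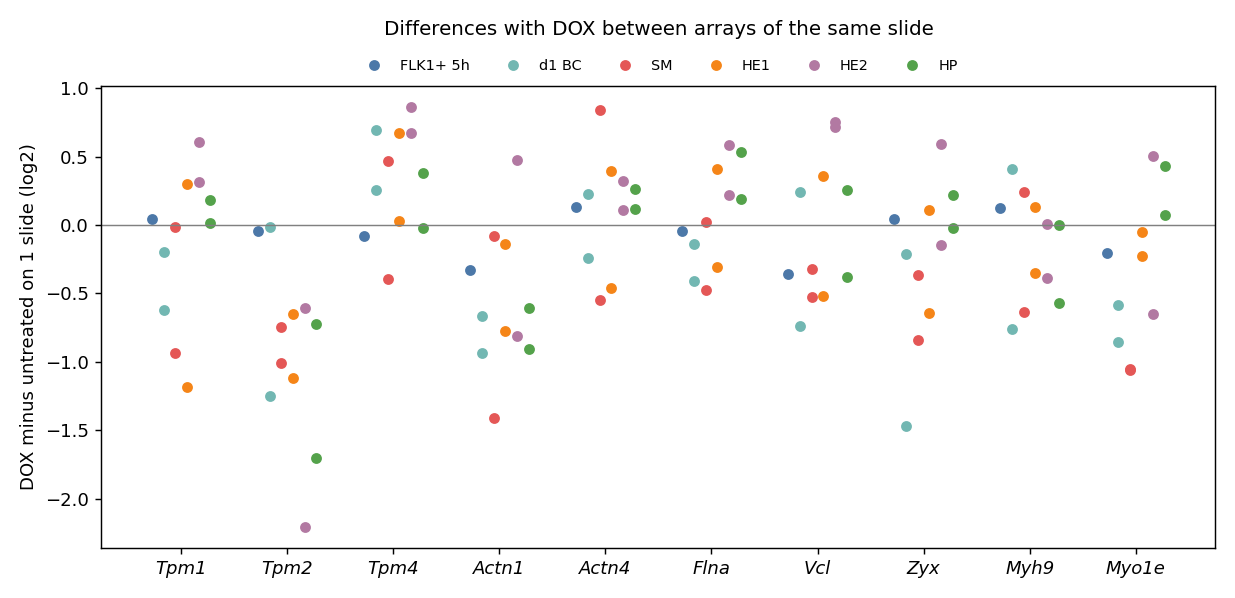
DOX minus untreated (y axis, log2) for each of the 10 genes (x axis) on slides that held both arrays of a population. Each point is 1 of 11 slide pairs, coloured by population, and all 11 points of Tpm2 and 10 of 11 of Actn1 lie below 0.

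Averaged over the 6 populations, a contrast added after the values above were seen, the DOX difference of Tpm2 was -0.98 (SE 0.35, adjusted p = 0.488) and that of Actn1 was -0.68 (SE 0.23, adjusted p = 0.427). None of the 10 genes was called, against 0.17% of all genes. With the slide as a random block the values were -0.93 (adjusted p = 0.139) and -0.65 (adjusted p = 0.133), which also did not pass. The difference between the DOX effect in SM and that in HE1, HE2 or HP was called for 0 of the 10 genes, and for 0% of all genes in each of these 3 comparisons. Myo1e had the largest such difference against HE1 (-1.11, SE 0.65) and HP (-1.49, SE 0.65) and Vcl against HE2 (-1.22, SE 0.99). That of Vcl was -0.12 without SM DOX replicate 1 and 0.075 on its second probe. In the other tropomyosin, actinin, filamin and myosin genes, the focal adhesion genes and the SRF regulators, 0 genes were called with DOX in any population, with an unadjusted p under 0.05 in 8 of 86, 5 of 236 and 1 of 22 tests over the 6 populations, against 3.78% of tests over all genes.

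Tpm1 was read by 5 probes, which did not move alike. The probe with the highest mean, A_55_P2187038, was used above, and its DOX differences ran from -0.44 to 0.46. Probe A_55_P2032192 was lower with DOX in 6 of 6 populations, by 0.56 to 2.20, and in 10 of the 11 slide pairs, although in SM it was 0.22 without DOX replicate 2. Its HP arrays read 0.77 and 1.96 with DOX against 3.67 and 3.47 without, a difference of -2.20 (SE 1.16). Probe A_55_P2078680 was lower in 6 of 6 as well, by 0.17 to 0.97, and in HP read 1.38 and 1.21 against 2.08 and 2.34, but at FLK1+ 5h its direction turned without DOX replicate 2.

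None of these probe differences passed with each probe tested on its own, the averages over the 6 populations being -1.40 (SE 0.47, adjusted p = 0.470) for A_55_P2032192 and -0.72 (SE 0.24, adjusted p = 0.493) for A_55_P2078680. The 5 probes are annotated to 4 Tpm1 transcripts, A_55_P2187038 and A_55_P2187043 to the same one, and whether the difference between probes is one of transcripts or of probes was not tested. The probes also ranged from -3.19 to -0.57 between SM and HP, with 3 of the 5 called. Replicates of A_55_P2032192 lay far apart in places, as in HE2 with DOX at 3.07 and 0.36. For Tpm2 the second probe was lower in 6 of 6 populations too, by 0.13 to 0.65 (in 3 of these the direction turned without 1 array), and the second Vcl probe was lower in 10 of the 11 slide pairs, against 6 for the first.

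**Figure D4:**
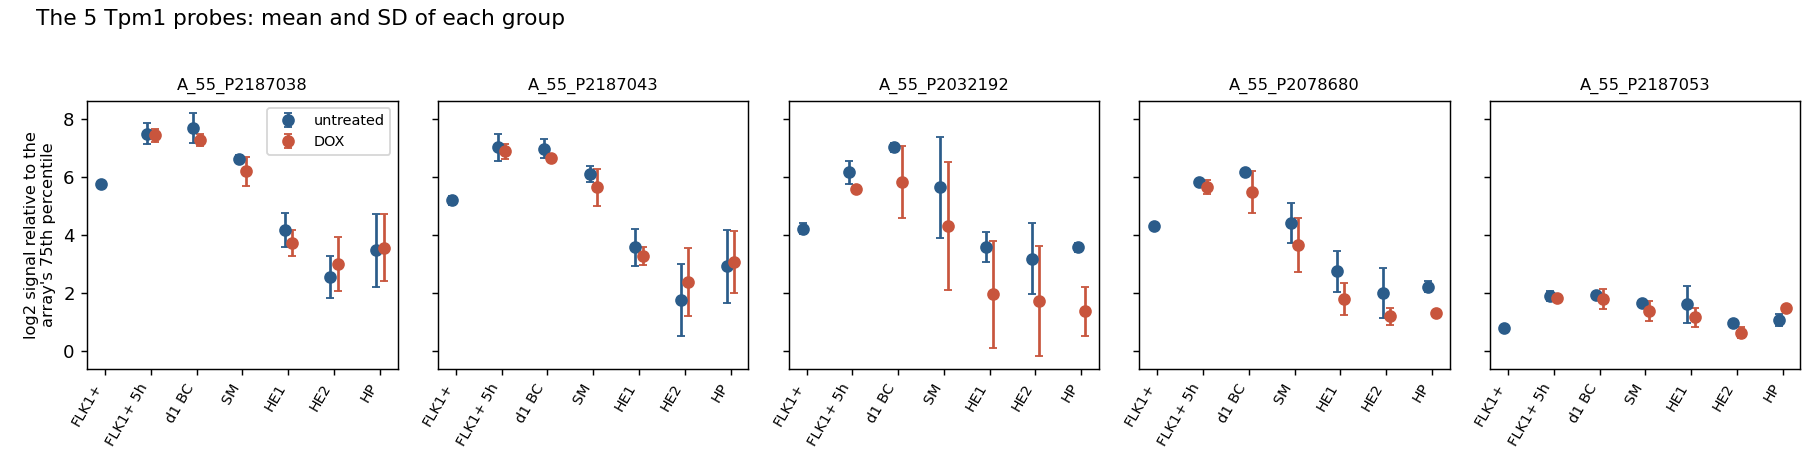
Level of the 5 Tpm1 probes (y axis, log2 signal relative to the array's 75th percentile) in the 7 populations (x axis), as the mean and SD of each group without (blue) and with DOX (red). A_55_P2032192 and A_55_P2078680 have lower means with DOX in all 6 populations, while those of A_55_P2187038 and A_55_P2187043 lie on both sides.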

How the data were processed

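One-colour Agilent mouse arrays held RNA of 27 samples in 13 groups, 2 arrays a group and 3 for untreated SM. The authors deposited the signal of each spot as an intensity from Feature Extraction (version 10.7.3.1 per the file headers and 10.7.1.1 per the submitters' notes), background-subtracted and detrended within each array. Median signal and local background were deposited as intensities too. A table of log2 values, which the authors had normalized between arrays, served as an alternative.

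Control spots and outlier spots were left out, and spots of a probe were averaged on the log2 scale. The 75th percentile of the 55681 remaining probes was subtracted on each array. Symbols came from a RefSeq table (26582 probes), and each of 37208 genes or transcripts (20145 with a symbol) was represented by its probe of highest mean. No array pair was identical (0). Genes entered a comparison if every array of 1 or both groups read the probe well above background.

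A linear model of the 13 group means was fitted across all genes with limma 3.58.1 (lmFit, eBayes; R 4.3.3; 14 residual and 4.49 prior degrees of freedom). Calls needed a change of at least 2-fold and, after Benjamini-Hochberg adjustment, p under 0.05. The number of arrays limits the precision. The code of the model was run on simulated data with known differences between SM with and without DOX. That run checks the code and does not show that the model suits these data. Other software was Python 3.11.15, numpy 2.4.6, pandas 2.3.3, matplotlib 3.10.9 and the R package data.table, version 1.17.8.

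The 10 genes and the lists were chosen with earlier results of these data known. The lists, from general knowledge, held 16 further tropomyosin, actinin, filamin and myosin genes, 42 focal adhesion and actin-binding genes, 4 SRF and MRTF regulators and markers of smooth muscle, endothelial, hematopoietic, fibroblast, pluripotent, erythroid, megakaryocyte and myeloid cells. Tgfb1i1 and Cd68 had no matching symbol. Some genes of the lists are not reported here by name. Members are described in every group, with tests, or the range of their adjusted p-values, where they were called, where arrays did not overlap or where the difference was the largest of a comparison, and other genes of a list where called. The 5 genes with the most similar profile are named.

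Alternatives were other background corrections, scalings, filters, probe rules, thresholds, spread models and sample choices, the authors' values, blocks for slide, scan day and replicate number, and leaving out each array. The percentile over spots instead of probes, averaging of intensities, the crossed pairing in FLK1+ 5h, leaving out arrays for members not named in a comparison and the average over 6 populations were added after the data were seen. Of 4 such versions of percentile and averaging, the one used was kept because its Hprt levels matched an earlier processing of these arrays, although none of the 4 matched all of its counts of genes called with DOX, and in all 4 the number of members called with DOX was 0.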

Additional observations from a re-analysis of the deposited data

How the results depend on the processing

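With DOX, 0 of the 10 genes were called in any population under every alternative run apart from the unadjusted p under 0.05 with 2-fold, which called 2 in SM and 1 for SM minus HP. Between untreated populations the counts moved as follows. From FLK1+ to FLK1+ 5h (0 called), quantile normalization called 1, the authors' values 2 and the unadjusted p 2. From SM to HE1 (0 called), 1 gene was called with quantile normalization, with slide as a fixed block and with scan day as a block, 2 with normexp and with a variance trend, 3 with the authors' values and with slide as a random block, and 4 with array weights and with the unadjusted p. From HE1 to HE2 (1 called), 0 were called with normexp, median scaling, no filter, the filter on both groups, array weights, only the groups compared and every probe tested, and 2 with quantile normalization, the authors' values and the unadjusted p, while leaving out 1 array gave 0 to 0. From SM to HP (3 called), only the groups compared gave 1, median scaling and the replicate block 2, and quantile normalization, the authors' values, the mean of all probes, every probe tested, either slide block, array weights and the unadjusted p 4, and leaving out 1 array gave 1 (without HP replicate 1) to 4. The causes were not tested.

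Over the differences of members that were called, had no overlap of arrays or were the largest of a comparison, and over all alternatives, 1150 values kept their direction and side of the threshold, 26 passed it only under an alternative, 21 no longer passed and 6 changed sign. None of these 6 was called. The other member differences were followed only by leaving out each array in turn, which was added after the data were seen. Over all 10 genes the direction turned without 1 array in 40 of 60 DOX differences and in 26 of 70 differences between untreated populations, and in 0 of those called. Tpm2 with DOX in HE1 ran from -1.98 to 0.22 when 1 array was left out, the latter without HE1 DOX replicate 2. Tpm4 from FLK1+ 5h to d1 BC was -0.20 with median scaling and -0.22 with scan day as a block, and Myh9 from d1 BC to SM was 0.013 with quantile normalization. With its second probe, Vcl was -0.74 from HE2 to HP and 0.075 for DOX in SM minus HE2.

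Same-numbered arrays with and without DOX deviated from their group means together (r from 0.27 to 0.65) apart from FLK1+ 5h (r = -0.11), but the labels do not say that a number marks a shared culture. All of these pairs but FLK1+ 5h replicate 1 also shared a slide, so that slide and replicate number cannot be told apart in them. With the replicate number as a block, Actn1 from SM to HP was -1.50 (adjusted p = 0.065) and lost its call, so that 2 members were called there, and the other member counts did not move. Crossing the numbers in FLK1+ 5h gave 0 members called. Actn1 from SM to HP was also lost with median scaling (adjusted p = 0.172), and Tpm1 (0.064) and Actn1 (0.239) with only the groups compared. The signal over background limits Myo1e most, in HE2 and HP.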
